A study of Mus musculus with 9 samples.

Results

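A set of 9 genes that build and hold chromatin loops were followed in RNA-seq of the mouse hepatocyte line AML12 after depletion of *Srrm2*, which encodes a scaffold protein of nuclear speckles (NSs). The 9 were looked up by symbol in GENCODE M1 and are *Ctcf*, *Rad21*, *Smc1a*, *Smc3*, *Stag1*, *Stag2*, *Nipbl*, *Pds5a* and *Pds5b*, and all 9 are listed in both deposited tables, among 13424 genes in the table of control and shRNA 1, 13478 in the table of control and shRNA 2 and 13259 in both. They were chosen as the machinery of the TAD boundaries and loops that Hi-C measures, not for any measured value. The choice was made with earlier results of these data known. The groups were control, *Srrm2* shRNA 1 and *Srrm2* shRNA 2, with 3 libraries in each group. Knockdown cells were collected on day 5 of lentiviral infection, and no day was recorded for the controls. The cells were otherwise untreated, were grown in medium with serum, insulin, transferrin, selenium and dexamethasone, and the labels do not say whether the libraries of a group came from separate cultures. The values used are the authors' mean normalized counts, 1 per gene and table, averaged over the libraries of a table. These were taken to be the 3 control and 3 knockdown libraries, although the descriptions of 2 control libraries name tables of further hairpins in place of the shRNA 2 table, so that this table may hold fewer controls. No value per library was used, so there is no replicate error, no test between groups, and no change against the control is given here. Every difference below is a description of pooled means.

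Loop domains are thought to form by extrusion. Cohesin, a ring of SMC1A, SMC3 and the kleisin RAD21 with a STAG subunit bound to it, is loaded on chromatin by NIPBL and its partner MAU2 and reels in DNA until it meets CTCF bound in a suitable orientation. PDS5A and PDS5B bind the ring and act in its release from DNA and in its protection, and STAG1 and STAG2 are alternative subunits of separate cohesin complexes. The same ring holds sister chromatids together in dividing cells.

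*Stag1* and *Stag2*, and *Pds5a* and *Pds5b*, are paralogs, so it matters for every value below that their reads can be told apart. The coding sequences of *Stag1* and *Stag2* were 70.3% identical over 3737 aligned bases, those of *Pds5a* and *Pds5b* 69.5% over 3957, and the longest run of identical bases was 23 in each pair. The most similar stretches of 90 bases are shown because a read is hardest to place there. They are coding sequence read 5′ to 3′ from the transcript with the longest coding sequence, with capitals where the paralogs differ. The *Stag* stretch runs from exon 25 to exon 26 in both genes (*Stag1*, + strand of chromosome 9 of NCBIM37, the assembly of mm9, 100832134 to 100832145 and 100843057 to 100843134. *Stag2*, + strand of chromosome X, 39610160 to 39610171 and 39611203 to 39611280) and differs at 12 of the 90 bases.
Stag1: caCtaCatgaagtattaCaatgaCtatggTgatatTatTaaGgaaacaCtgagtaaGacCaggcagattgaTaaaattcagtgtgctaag
Stag2: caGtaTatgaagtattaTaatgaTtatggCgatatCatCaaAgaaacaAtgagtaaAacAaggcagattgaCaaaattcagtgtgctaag
The *Pds5* stretch runs from exon 4 to exon 5 (*Pds5a*, - strand of chromosome 5, 66055667 to 66055693 and 66055130 to 66055192. *Pds5b*, + strand of the same chromosome, 151524930 to 151524956 and 151525053 to 151525115) and differs at 11 of the 90 bases.
Pds5a: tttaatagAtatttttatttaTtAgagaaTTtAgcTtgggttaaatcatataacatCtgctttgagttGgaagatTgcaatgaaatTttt
Pds5b: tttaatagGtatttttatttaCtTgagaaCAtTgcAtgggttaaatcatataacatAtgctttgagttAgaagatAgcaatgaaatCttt
Of the 50-mers in the annotated coding transcripts of each of the 9 genes, 0 lay in a coding transcript of another gene. No exon of a member overlapped an exon of another annotated gene. The read length is not given in the sources used here, and copies outside annotated coding transcripts were not searched.

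At the protein level the relation within the pairs was similar, with 72.2% identical residues between STAG1 and STAG2 (1258 and 1268 residues) and 70.7% between PDS5A and PDS5B (1332 and 1449 residues). SMC1A and SMC3, which pair in the ring, were 30.1% identical (1233 and 1217 residues). The translated *Ctcf* coding sequence had 736 residues and held 10 matches to the pattern of a C2H2 zinc finger, the DNA-binding unit of CTCF.

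The cells showed the hepatocyte signature in part. All 8 hepatocyte markers looked for were listed, among them *Alb* with a mean normalized count of 2151 in the table of shRNA 1, *Apob* with 20192 and *Hnf4a* with 1498, while *Apoa1* had 39.4. The bile duct keratins *Krt7* and *Krt19* were also high, at 1351 and 2851. *Ptprc*, a marker of leukocytes, had 5.30, and the endothelial markers *Pecam1* and *Cdh5* and the stromal markers *Acta2* and *Pdgfrb* were not listed in either table. The targeted gene *Srrm2* (ENSMUSG00000039218.9) had means of 3428 and 3759. These pool control with knockdown libraries, so they do not show the degree of knockdown. Summed over the listed genes, the means came to 6144608 and 6393456, of which the 9 members held 0.129% and 0.126%.

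Most members were well expressed. On the scale of mean normalized count per kb of exon, the authors' pooled mean was divided by the union of annotated exons, so that genes of different length can be compared. On this scale 8 of the 9 lay above the median of the listed protein-coding genes (47.6 in the table of shRNA 1 and 49.5 in that of shRNA 2), and *Stag1* lay below it. Each value below gives the level in the table of shRNA 1 first.

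The ring subunits spanned a wide range. *Rad21* (ENSMUSG00000022314.9, - strand of chromosome 15, 51794151 to 51823306), the kleisin that closes the ring, had means of 949 and 891, or 263 and 247 per kb, at percentiles 90.7 and 89.8 of the protein-coding genes. *Smc3* (ENSMUSG00000024974.9, + strand of chromosome 19, 53674886 to 53720323) had means of 852 and 882, or 154 and 159 per kb. *Smc1a* (ENSMUSG00000041133.5, + strand of chromosome X, 148450971 to 148497237) had means of 487 and 531, or 84.5 and 92.1 per kb. Per kb, *Smc1a* was thus at 0.550 and 0.579 of *Smc3*, its partner in the ring. *Rad21* was at 1.71 and 1.55 of *Smc3*.

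The alternative STAG subunits also lay apart. *Stag2* (ENSMUSG00000025862.8, + strand of chromosome X, 39502494 to 39630362) had means of 1284 and 1197, or 155 and 145 per kb. *Stag1* (ENSMUSG00000037286.8, + strand of chromosome 9, 100498217 to 100858964) had means of 368 and 443, or 35.8 and 43.1 per kb, the lowest of the 9. The level of *Stag2* per kb was 4.33 times that of *Stag1* in the table of shRNA 1 and 3.35 times in that of shRNA 2. *Stag1* spans 361 kb, has 17 annotated transcripts and a union of exons of 10266 bases against 6186 for its longest coding transcript, and with that length the ratio was 3.50 and 2.71. The level of both *Stag* genes together was 1.24 and 1.18 times that of *Smc3*.

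Among the factors that act on the ring, *Pds5a* (ENSMUSG00000029202.8, - strand of chromosome 5, 66006499 to 66089095) had the highest level of the 9, with means of 1149 and 1197, or 276 and 288 per kb. Its paralog *Pds5b* (ENSMUSG00000034021.9, + strand of chromosome 5, 151476314 to 151613265) had means of 726 and 729, or 77.2 and 77.6 per kb, which is 0.280 and 0.270 of *Pds5a*. The loader *Nipbl* (ENSMUSG00000022141.6, - strand of chromosome 15, 8241225 to 8394463) had the highest means as deposited, 1703 and 1710, with 8815 exonic bases, and came to 193 and 194 per kb. Its partner *Mau2* had 127 and 160 per kb, so that *Nipbl* stood at 1.52 and 1.21 times *Mau2*.

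*Ctcf* (ENSMUSG00000005698.9, + strand of chromosome 8, 108160468 to 108206822), whose protein marks boundaries and loop anchors, had means of 425 and 461, or 87.5 and 94.8 per kb, at percentiles 67.9 and 69.3. From high to low the order in the table of shRNA 1 was *Pds5a*, *Rad21*, *Nipbl*, *Stag2*, *Smc3*, *Ctcf*, *Smc1a*, *Pds5b* and *Stag1*. In the table of shRNA 2 *Smc3* and *Stag2* changed places. With no error per gene it cannot be said which neighbours differ beyond the spread of replicates, and the closest neighbours were *Stag2* and *Smc3* (155 and 154) and *Ctcf* and *Smc1a* (87.5 and 84.5) in the table of shRNA 1.

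**Figure D1:**
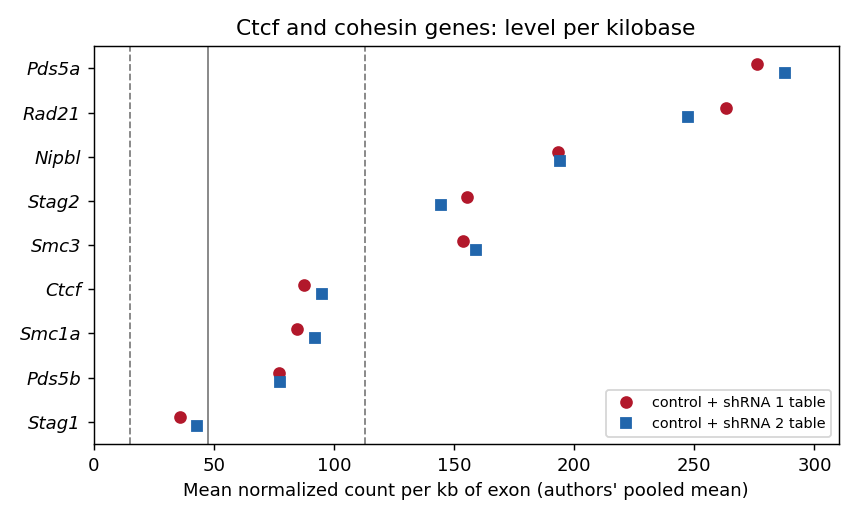
Level per kilobase of exon of the 9 genes, as the authors' pooled mean normalized count divided by exon length (x axis, linear), in the table of control and shRNA 1 (red circles) and of control and shRNA 2 (blue squares). Grey lines mark the quartiles (dashed) and the median (solid) of listed protein-coding genes in the table of shRNA 1, and *Stag1* alone lies below the median, at 35.8 and 43.1.

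**Figure D2:**
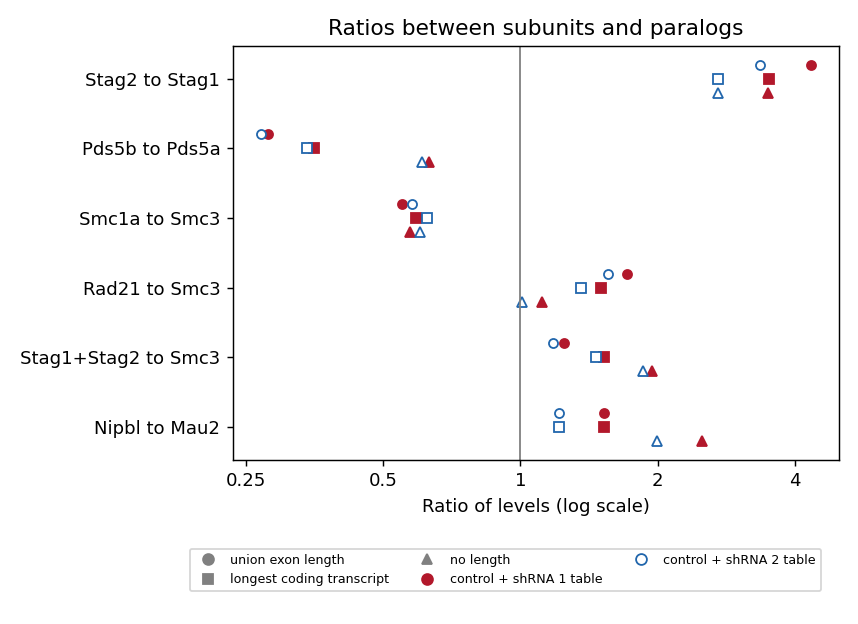
Ratios between members, and of *Nipbl* to *Mau2*, on a log axis, in the table of shRNA 1 (filled red) and shRNA 2 (open blue), with levels per union exon length (circles), per length of the longest coding transcript (squares) and with no length (triangles). *Stag2* exceeded *Stag1* in all 6 values, from 2.70 to 4.33.

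To compare the hairpins, the pooled mean in the table of shRNA 1 was divided by that in the table of shRNA 2. Both tables hold control libraries beside those of the hairpin, so the ratio mixes the hairpin groups with controls, and the tables were normalized separately. If the table of shRNA 2 holds fewer controls, a change common to both hairpins would also move the ratio. The log2 ratio was centred on its median over the 7757 genes whose mean reached 100 in each table, which was -0.07 before centring, and a gene was counted as past the fold beyond 0.1 in either direction. Of the 9 members, 2 were higher past the fold in the table of shRNA 1, where 22.4% of the 7757 genes were, and 1 was lower, where 21.3% were. With only 9 genes these counts do not set the members apart from genes in general. The median of the members was 0.02, beside a median of 0 for all genes.

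The 3 members past the fold were the *Stag* pair and *Rad21*. *Stag2* had a centred log2 ratio of 0.17, above 89.3% of the 7757 genes, and *Rad21* 0.16, above 88.0%. *Stag1* had -0.20, above 6.38%. Its pooled mean was 0.871 of that in the table of shRNA 2 after centring, against 1.12 for *Stag2*. The ratio of *Stag2* to *Stag1* within a table does not depend on the scale of the table. It was 1.29 times as high in the table of shRNA 1 as in that of shRNA 2. Without replicate error it cannot be told whether this exceeds the spread between libraries. An unequal number of controls in the tables could also move this ratio, which was not tested.

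The other 6 stayed within the fold after centring. Without centring *Ctcf* (-0.12) and *Smc1a* (-0.12) were past it and *Rad21* (0.09) was not. Centred, *Ctcf* had a log2 ratio of -0.05, *Smc1a* -0.06, *Smc3* 0.02 and *Pds5a* 0.0086, and *Nipbl* and *Pds5b* both 0.06. The ratio of *Pds5b* to *Pds5a* differed by a factor of 1.04 between the tables and that of *Smc1a* to *Smc3* by 0.950. *Srrm2* itself had -0.07. *Smc3* (-0.05), *Nipbl* (-0.01), *Pds5a* (-0.06) and *Pds5b* (-0.01) turned negative without centring, so no direction is read for them.

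**Figure D3:**
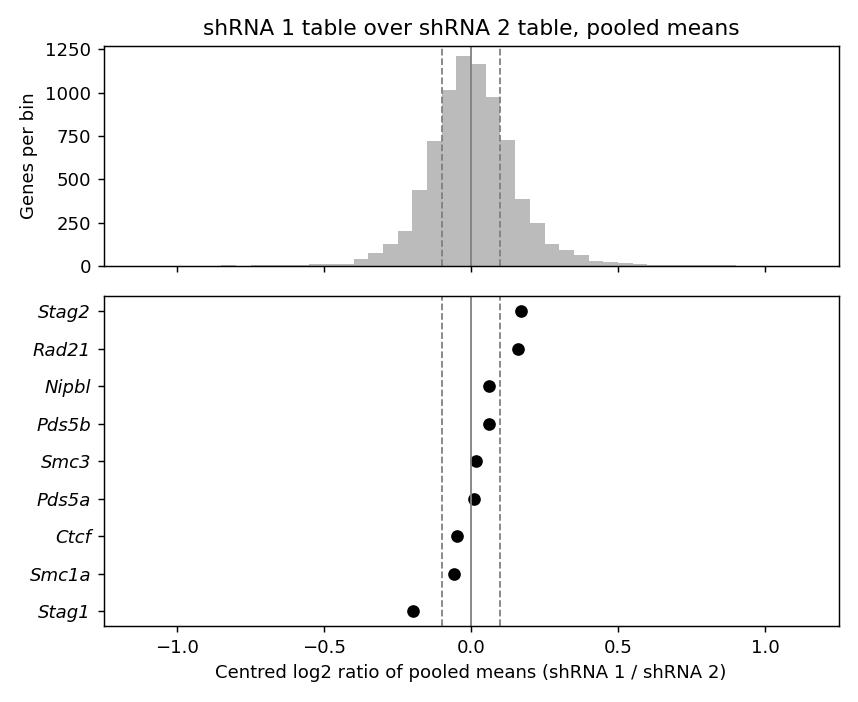
Above, number of genes per bin of 0.05 (y axis) by centred log2 ratio of the pooled mean of control and shRNA 1 over that of control and shRNA 2 (x axis), for the 7757 genes whose mean reached 100 in each table. Below, the 9 members on the same axis, with dashed lines at 0.1 in either direction, where *Stag2* and *Rad21* lie to the right and *Stag1* to the left.

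Lists of related genes, chosen with earlier results of these data known, were read in the same way. Of 15 other cohesin genes, 10 are listed in both tables. The 5 that are not, *Rec8*, *Rad21l*, *Smc1b*, *Stag3* and *Ctcfl*, are forms known from germ cells, and no value is given for them. Among the 5 with a mean of at least 100, 2 were higher past the fold in the table of shRNA 1 and 1 lower. Of all genes, 22.4% and 21.3% were, and with so few genes these counts do not set the list apart. The higher ones were *Espl1*, the separase that cuts RAD21 at anaphase (0.36), and *Sgol2*, a shugoshin that guards centromeric cohesin (0.36), of whose exonic bases 2455 overlap *Kctd18* on the opposite strand. The lower one was *Mau2*, with -0.27, while the loader *Nipbl* had 0.06. *Wapal*, the factor that releases cohesin from DNA, was the most abundant of the list at 200 and 196 per kb, and had 0.10, just within the fold. *Esco1*, the last of the 5 with a mean of at least 100, had 0.08. *Hdac8*, the deacetylase of SMC3, had a mean below 100 in both tables and a ratio of -0.04. Per kb of exon union it was the lowest of the list in the table of shRNA 1, at 17.0, with 18.4 in that of shRNA 2. Per kb of the longest coding transcript it had 42.6 in the table of shRNA 1, above *Sgol1* with 20.6.

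With a mean below 100 in at least 1 table, *Esco2*, *Sgol1*, *Pttg1* and *Cdca5* had centred log2 ratios of 0.59, 0.57, 0.43 and 0.37. These genes act in sister chromatid cohesion from S phase to mitosis. Their levels per kb lay between 13.9 (*Sgol1*, table of shRNA 2) and 50.2 (*Cdca5*, table of shRNA 1). *Hdac8*, the other listed gene below a mean of 100, had a ratio of -0.04. With a minimum mean of 50, chosen after the data were seen, 6 of 10 genes of this list were higher and 1 lower, where 23.3% and 22.7% of 9339 genes were.

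Condensin compacts chromosomes in mitosis, and SMC5 and SMC6 form a related complex of DNA repair. All 10 genes are listed and all 10 ratios were above 0, with a median of 0.20. Of the 9 with a mean of at least 100, 8 were higher past the fold and 0 lower, beside the 22.4% and 21.3% of all genes. *Smc2* and *Smc4*, the core pair of condensin, had 0.33 and 0.30, *Ncapg2* 0.31 and *Smc5* 0.23. *Smc5* had the highest level of the list, 583 and 521 per kb, and *Ncapg* the lowest, 15.5 and 11.6. Per kb of the longest coding transcript *Ncapg* had 29.6 and 22.2, above *Ncapg2* with 25.4 and 21.5. *Ncaph* had 0.10, just within the fold, and *Ncapd3* 0.10, just past it. Without centring 5 of the 9 were past the fold. The shares of all genes above are for centred ratios and are no background for that count. The condensin genes *Ncapg* (942 bases, *Lcorl*) and *Ncaph2* (768 bases, *Sco2*) share exonic bases with a listed gene on the opposite strand.

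Of 9 other factors found at boundaries or loops, 8 had a mean of at least 100, of which 1 was higher past the fold and 2 lower, close to the 22.4% and 21.3% of all genes. *Top2a*, the topoisomerase of dividing cells, had 0.35 and its paralog *Top2b*, which is also used by non-dividing cells, -0.13. *Ldb1*, a looping factor and the highest of the list at 279 and 346 per kb, had -0.24. Of its exonic bases, 177 overlap the listed gene *Pprc1* on the opposite strand. *Yy1*, *Zfp143*, *Maz*, *Patz1* and *Parp1* lay between -0.04 and 0.04.

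**Figure D4:**
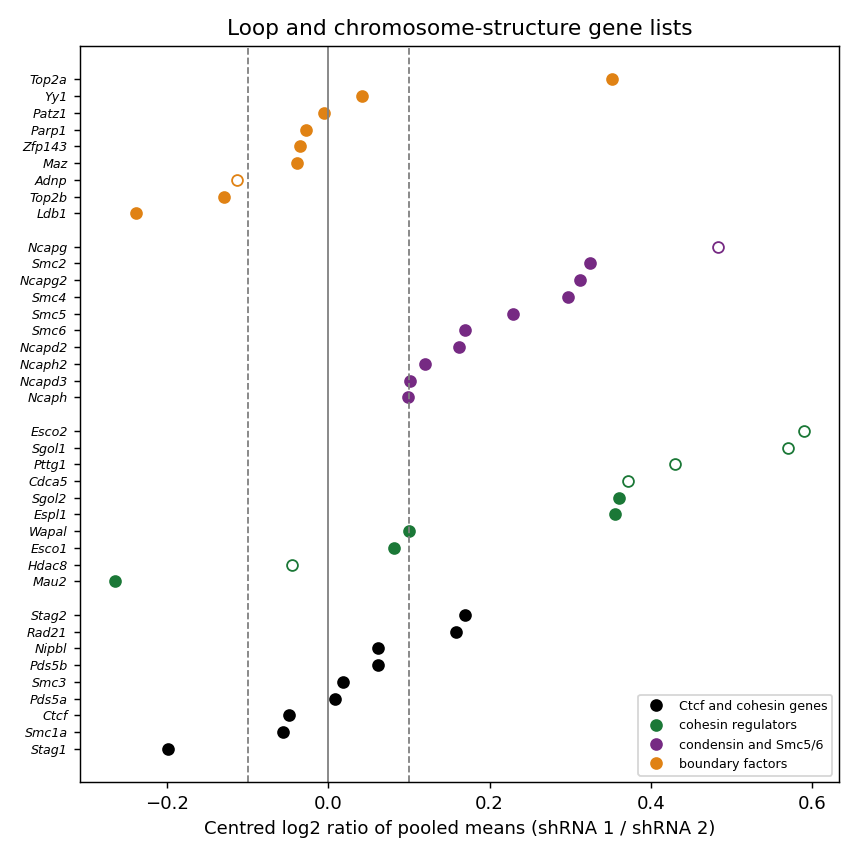
Centred log2 ratio of pooled means (x axis) of each listed gene of the 4 lists, with open circles for genes under a mean of 100 in a table and dashed lines at 0.1 in either direction. All 10 genes of the list of condensin and Smc5/6 lie to the right of 0, and the 9 members lie on both sides.

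Promoter windows from 250 bases before to 50 bases after the start were matched by symbol in RefSeq (GRCm38.p6, another build than that of the tables) for 6 of the 9 members. *Rad21*, *Stag2* and *Nipbl* were not matched. The windows held 23 to 55 CG dinucleotides, against a median of 7 over 32851 windows, the lowest being that of *Smc1a* and the highest that of *Pds5a*. Exact matches on both strands were counted for 7 motifs of 6 or 7 letters. For these 7, the share over all windows is not matched for CG content, so no enrichment in the members is read from it. The SP/KLF motif GGGCGGG was in 4 of 6 windows, those of *Ctcf*, *Pds5a*, *Pds5b* and *Smc1a*, and in 25.6% of all. The YY1 motif GATGGCG was in 2, those of *Ctcf* and *Stag1*, and in 3.49% of all. A core of the CTCF motif, AGGNGGC, was in 2, those of *Ctcf* and *Pds5b*, and in 29.4% of all. The ETS motif CCGGAAG was in 0 of 6 windows and in 8.86% of all. The same count of 0 held for the NRF1 motif GCATGCG (3.58% of all windows), for the cyclic AMP response element TGACGT (7.51% of all windows) and for the TATA box TATAAA (13.6% of all windows). A further form of the YY1 motif, AATGGCG, was searched after the sequences were seen. Since it was picked from these same windows, its count in them is no test of enrichment. AATGGCG was in 4 of 6 windows, those of *Ctcf*, *Smc3*, *Pds5b* and *Stag1*, and in 2.02% of all windows. It was in 4.10% of the 7071 windows with at least 23 CG dinucleotides, while those 4 windows held 32 to 47. Matches of different motifs in the members did not overlap. The 4 windows that hold AATGGCG are shown, with it or its reverse complement in capitals, read along the strand of the gene. They are *Ctcf* at chr8:105636288-105636587 (+ strand), *Smc3* at chr19:53600146-53600445 (+ strand), *Pds5b* at chr5:150673577-150673876 (+ strand) and *Stag1* at chr9:100643198-100643497 (+ strand).
Ctcf: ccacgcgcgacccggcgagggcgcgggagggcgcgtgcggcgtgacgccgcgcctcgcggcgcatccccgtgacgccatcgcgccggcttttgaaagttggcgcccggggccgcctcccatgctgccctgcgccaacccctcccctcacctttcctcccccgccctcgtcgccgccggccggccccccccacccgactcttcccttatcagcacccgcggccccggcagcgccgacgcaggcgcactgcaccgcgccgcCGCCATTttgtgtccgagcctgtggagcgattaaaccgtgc
Smc3: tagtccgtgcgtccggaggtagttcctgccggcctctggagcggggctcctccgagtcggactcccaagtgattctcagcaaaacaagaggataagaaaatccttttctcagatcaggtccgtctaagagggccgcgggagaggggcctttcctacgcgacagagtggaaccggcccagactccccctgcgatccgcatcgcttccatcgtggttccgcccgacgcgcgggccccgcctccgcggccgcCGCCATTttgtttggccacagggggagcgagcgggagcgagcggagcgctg
Pds5b: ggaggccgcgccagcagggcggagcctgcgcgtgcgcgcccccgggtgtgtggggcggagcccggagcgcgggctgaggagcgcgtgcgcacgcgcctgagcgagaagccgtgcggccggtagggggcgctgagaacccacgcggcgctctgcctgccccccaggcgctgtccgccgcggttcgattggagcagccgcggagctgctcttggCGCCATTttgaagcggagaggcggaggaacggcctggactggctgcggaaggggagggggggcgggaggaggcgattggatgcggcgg
Stag1: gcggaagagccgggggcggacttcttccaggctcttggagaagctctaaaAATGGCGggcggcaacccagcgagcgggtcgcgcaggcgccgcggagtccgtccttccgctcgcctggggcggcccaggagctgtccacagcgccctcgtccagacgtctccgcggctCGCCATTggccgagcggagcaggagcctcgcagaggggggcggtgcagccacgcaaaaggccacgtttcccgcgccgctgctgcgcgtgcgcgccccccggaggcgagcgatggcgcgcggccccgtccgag
The first base of the match lay 9 bases after the start in *Ctcf*, 1 base before it in *Smc3* and 38 bases before it in *Pds5b*, and *Stag1* had matches at 200 and 82 bases before. No measurement of binding was used, and of the 4 genes only *Stag1* was past the fold between the tables.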

How the data were processed

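The authors trimmed the reads, mapped them to mm9 with TopHat2, kept uniquely mapped concordant pairs, took raw counts per GENCODE M1 gene from HTSeq, and the authors compared each hairpin with control in DESeq2 1.8.2. Libraries kept strand information and were made from polyA RNA, and the strand setting of the counting is not given in the sources used here. The deposited signal used is the mean normalized count of each gene over the libraries of a table, and the tables do not name these libraries. The other 5 value columns of each deposited table hold the authors' own comparison with the control (fold change, its standard error, statistic, p-value and adjusted p-value) and were not used, so no test was run. Depth per library is unknown, and no interval is given.

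Levels per kb, ratios and the centred log2 ratio between the tables (fold 0.1, minimum mean 100) were computed with Python 3.11.15, numpy 2.4.6 and pandas 2.3.3, checked on simulated data. All gene identifiers matched GENCODE M1 on NCBIM37. Of 2 genes named *Trf*, the listed one was taken. Sequences were aligned with Biopython 1.88 (proteins with BLOSUM62, translated from the annotated coding sequences). Members and lists were chosen with earlier results of these data known. Named genes are the members, *Srrm2* and the fixed lists. *Kctd18*, *Lcorl*, *Sco2*, *Dpm1*, *Pprc1* and *Malat1* were added afterwards, as were further examples from the lists. A gene of the list of boundary factors is not reported here. Alternatives were other folds, centrings, lengths and minimum means.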

Additional observations from a re-analysis of the deposited data

How the results depend on the processing

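For the main results, 24 alternative values stayed within 1.5 times the reported value and 16 did not. With a fold of 0.05, 4 members were higher and 2 lower in the table of shRNA 1, and with a fold of 0.2 there were 0 and 0. Without centring 1 was higher (*Stag2*) and 3 lower, *Ctcf* (-0.12) and *Smc1a* (-0.12) joining *Stag1*. Shares of all genes are not given at these settings, so nothing about the members as a group is read from these counts. *Stag1*, *Stag2* and *Rad21* kept their sign under all 3 other centrings. Without a length, 3 of 9 members kept their place in the order in the table of shRNA 1 and 2 in that of shRNA 2. The ratios became 0.632 and 0.609 for *Pds5b* to *Pds5a*, 1.11 and 1.01 for *Rad21* to *Smc3*, 1.94 and 1.86 for both *Stag* genes to *Smc3*, and 2.50 and 1.99 for *Nipbl* to *Mau2*. Leaving out *Malat1* gave member shares of 0.137% and 0.133%. No replicate could be left out, since each value pools the libraries. No paired analysis was possible because the columns used carry no replicate numbers.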

Other observations

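*Smc5* and *Smc6* encode partners of a single complex, but *Smc5* stood at 6.76 and 6.48 times *Smc6* per kb in the tables of shRNA 1 and shRNA 2, at percentiles 96.8 and 67.5 of protein-coding genes in the first. No exon of either overlapped another annotated gene. *Adnp*, a factor found at CTCF sites, had only 5.92 and 6.71 per kb, and 4393 of its 5350 exonic bases are shared with *Dpm1* on the same strand.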
